A study of Mus musculus with 18 samples.

Results

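Strand asymmetry of CpG methylation was examined at the autosomal CpGs for which reads of both DNA strands were available in the same mouse oocyte. A CpG was included in an oocyte when at least 5 reads covered its cytosine on the plus strand and at least 5 covered the cytosine opposite it on the minus strand. Of 1160411 autosomal CpGs listed in any of the 18 oocytes, 67762 met this rule in at least 1 oocyte, and they gave 129984 pairs of an oocyte and a CpG. The methylation level of a strand was the methylated read count over the read count on that strand, and levels at or above 80% were taken as high and levels at or below 20% as low. CpGs with both strands high are named symmetrically methylated, those with both strands low symmetrically unmethylated, and those with 1 strand high and the other low hemimethylated. CpGs with at least 1 strand between the limits fell in none of these classes.

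The libraries came from 2 early antral follicle (EAF) oocytes of the Sall4 knockout (KO), 4 EAF wild-type (WT) oocytes, 5 secondary follicle (SF) KO oocytes and 7 SF WT oocytes. The study's protocol names female Sall4fl/fl;Zp3-Cre and Sall4fl/fl mice as donors, so both genotypes carried floxed Sall4 alleles and the KO donors also Zp3-Cre, which deletes the floxed gene in oocytes once they start to grow. The labels list the ages P12.5 and P17.5, in postnatal days, for every oocyte without tying an age to a stage. Each library was reduced representation bisulfite sequencing of 1 oocyte, in which DNA of the nucleus is cut with MspI, converted with bisulfite and sequenced, so CpG-rich sequence is read most. The tables hold no transcripts and no annotation of their build (mm9) was used here, so neither the loss of Sall4 nor the cell type could be checked in these data.

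A CpG reads the same on both strands, and in most cells both of its cytosines carry the methyl mark. Methylation is laid down in growing oocytes by DNMT3A with its partner DNMT3L, while DNMT1 with UHRF1 adds the mark opposite a methylated cytosine. Growing oocytes are arrested in meiotic prophase, do not replicate their DNA and hold several copies of each chromosome strand. The plus and minus reads at a CpG can therefore come from different DNA molecules, and hemimethylation of 1 molecule cannot be told apart from molecules that differ.

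Per oocyte a median of 6141.5 CpGs were read on both strands, with the fewest, 572, in SF WT replicate 3 and the most, 17755, in SF KO replicate 2. Reads summed over autosomal CpGs ran from 450939 to 6284646 per oocyte, and each SF KO library had more than each SF WT library, so depth and genotype cannot be told apart at that stage. A CpG in the set had a median of 26 to 52 reads on both strands together. Since no label names an animal and each library is 1 cell, the oocytes of a group may share an animal and no test was made. Differences are set beside the spread between oocytes and describe these oocytes. SF KO replicate 1 and SF WT replicate 3 stood apart from their groups in several measures, with the highest mean strand level (30.4% on the plus strand) and the lowest (1.83%), and results that rest on either are given with and without it.

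Over all pairs, 61.9% were symmetrically unmethylated, 3.41% symmetrically methylated, 3.84% hemimethylated and 30.8% in no class. The exact binomial 95% interval of the hemimethylated share was 3.74% to 3.95% and covers counting error only, since neighbouring CpGs share reads and PCR copies are not separate molecules. Of the 4997 hemimethylated pairs, 2520 had the plus strand high and 2477 the minus strand high. Symmetric and hemimethylated pairs were thus about equally common among CpGs with a highly methylated strand and an extreme partner, with 4427 symmetrically methylated pairs.

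Hemimethylated CpGs made up 1.86% and 2.64% of the CpGs read on both strands in the EAF KO oocytes, against 2.88%, 3.47%, 4.17% and 4.83% in the EAF WT oocytes. The means were 2.25% ± 0.556 in EAF KO (SD, n = 2) and 3.84% ± 0.847 in EAF WT (SD, n = 4), and the groups did not overlap. In SF KO the share was 6.98% in replicate 1 and 2.57% to 4.22% in the other 4 oocytes, against a lowest of 1.22%, a median of 3.14% and a highest of 3.42% in SF WT. Their means of 4.12% ± 1.71 (SD, n = 5) and 2.88% ± 0.778 (SD, n = 7) differed by 1.24 points, and the ranges overlapped. Without SF KO replicate 1 the SF difference was 0.524 points, and without it and SF WT replicate 3 the means were 3.404% in SF KO and 3.16% in SF WT. On 3245 CpGs that were read on both strands in at least 1 oocyte of every group it was -1.41 points, and the EAF difference, -1.59 points over all CpGs, was -0.763 points. With 10 reads required per strand the EAF difference was -0.402 points with overlapping ranges.

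**Figure D1:**
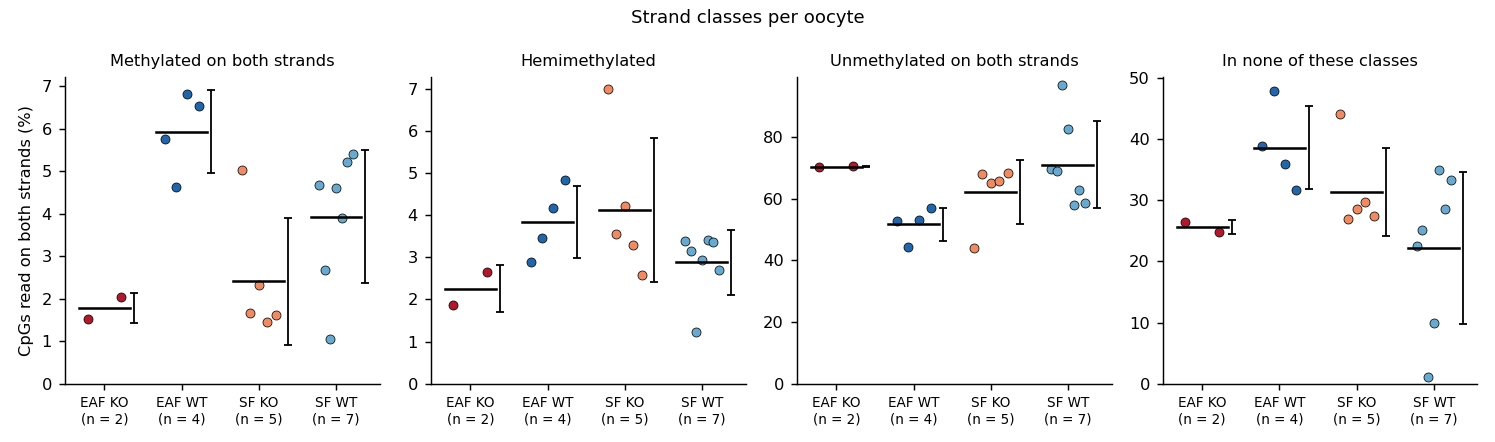
Share of CpGs read on both strands (percent, y axis of each panel) that fell in each strand class, with 1 point per oocyte, a bar at the group mean and a bracket of 1 SD. EAF KO oocytes lie below all EAF WT oocytes for symmetric methylation and for hemimethylation, while SF KO replicate 1 lies apart from the other SF KO oocytes in all panels.

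Symmetric methylation differed more between the EAF genotypes than hemimethylation did. It was 1.78% ± 0.355 in EAF KO (SD, n = 2) and 5.93% ± 0.980 in EAF WT (SD, n = 4), with 1.53% to 2.03% and 4.62% to 6.82% as ranges. In SF KO it averaged 2.41% ± 1.497 (SD, n = 5) and in SF WT 3.93% ± 1.57 (SD, n = 7). The SF ranges overlapped, at 1.44% to 5.02% in SF KO and 1.05% to 5.40% in SF WT. Without SF KO replicate 1 and SF WT replicate 3 the means were 1.76% in SF KO (1.44% to 2.33%, n = 4) and 4.41% in SF WT (2.67% to 5.40%, n = 6), and the ranges did not overlap. Symmetrically unmethylated CpGs averaged 70.4% in EAF KO and 51.7% in EAF WT without overlap, and 62.2% in SF KO and 71.0% in SF WT with overlap. Without the same pair of oocytes the SF means were both 66.7%.

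Among CpGs that were either hemimethylated or symmetrically methylated, the hemimethylated ones took a larger part in KO oocytes than in WT oocytes of both stages. They were 54.8% and 56.6% in the EAF KO oocytes, against 33.3%, 42.9%, 37.95% and 42.5% in the EAF WT oocytes. In the SF KO oocytes they were 58.2%, 68.1%, 64.5%, 69.5% and 61.5%, against a lowest of 33.3%, a median of 42.0% and a highest of 54.1% in the SF WT oocytes. All KO oocytes lay above all WT oocytes of their stage. The group means were 55.7% ± 1.22 in EAF KO (SD, n = 2) and 39.2% ± 4.49 in EAF WT (SD, n = 4), 16.5 points apart. They were 64.3% ± 4.66 in SF KO (SD, n = 5) and 44.0% ± 7.88 in SF WT (SD, n = 7), 20.3 points apart. Between stages the KO oocytes differed by -8.65 points, EAF minus SF, without overlap, and the WT oocytes by -4.84 points with overlapping ranges. The pooled SD between oocytes within a group was 3.94 points at EAF and 6.78 points at SF. The exact interval of a single oocyte was 44.2% to 65.2% for EAF KO replicate 1, with 93 such CpGs, and 25.1% to 80.8% for SF WT replicate 3, with 13.

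**Figure D2:**
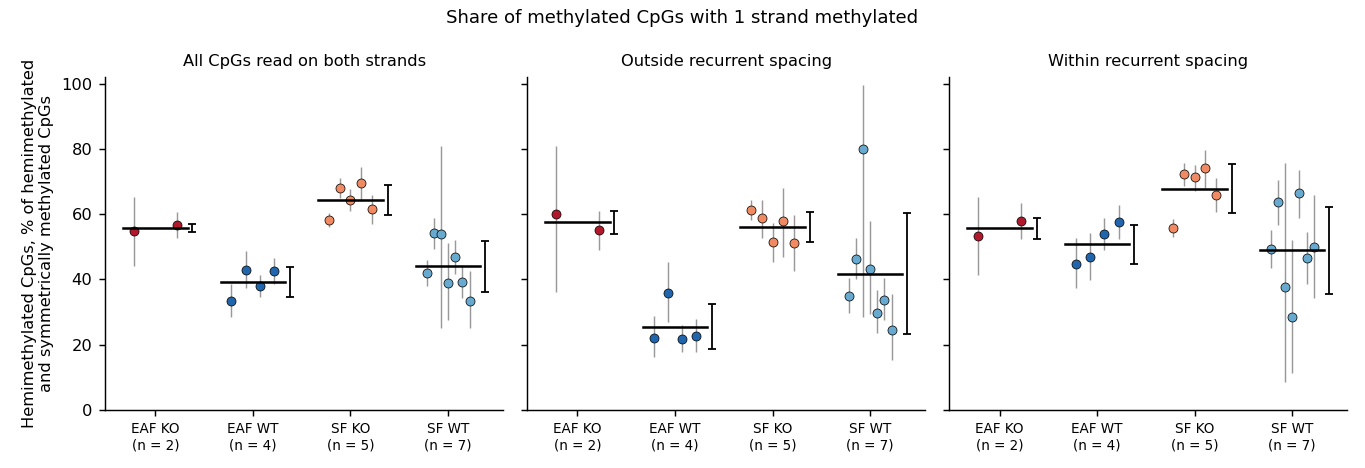
Hemimethylated CpGs as a percent of hemimethylated and symmetrically methylated CpGs (y axis), for all CpGs read on both strands, those outside recurrent CpG spacing and those within it. Points are oocytes with exact 95% intervals in grey, bars are group means and brackets 1 SD. In the left panel all KO oocytes of a stage lie above its WT oocytes, while in the right panel the ranges overlap at both stages.

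The mean plus-strand level was 18.2% in SF KO and 15.5% in SF WT, with overlapping ranges, and without SF KO replicate 1 and SF WT replicate 3 it was 15.2% in SF KO and 17.8% in SF WT, so the order of the SF means rests on these oocytes. At EAF it was 14.2% in EAF KO and 24.7% in EAF WT without overlap. The ratio does not give the size of strand differences. The mean absolute difference between strand levels was 10.01 points in EAF KO and 14.38 points in EAF WT, without overlap. It was 13.24 points in SF KO (18.55 in replicate 1) and 9.50 points in SF WT (1.66 in replicate 3), with overlap. Strand levels correlated with r of 0.632 in EAF KO and 0.669 in EAF WT, with overlap. At SF r was 0.556 in KO and 0.691 in WT, without overlap. The class shares were also calculated for a draw of 5 reads from each strand, which sets the included CpGs to 1 depth. The CpGs were still those included at the original, unequal depths. The differences in the ratio were then 16.0 points at EAF without overlap and 18.4 points at SF with overlapping ranges. Leaving out any single oocyte gave 14.6 to 17.8 points at EAF and 18.6 to 22.01 points at SF. On the 3245 CpGs read in every group the differences were 9.78 points at EAF and 8.94 points at SF, and the ranges overlapped at both.

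The level of the partner strand gave the same order. It was computed from the same strand calls as the ratio, so it is no separate evidence. Where the plus strand was high, the minus strand was also high at 40.9% of CpGs in EAF KO (40.6% to 41.2%, n = 2) and at 59.0% in EAF WT (51.5% to 65.5%, n = 4). It was high at 34.9% in SF KO (26.5% to 40.4%, n = 5) and at 54.9% in SF WT (45.2% to 66.7%, n = 7). Neither pair of ranges overlapped. Where the plus strand was low, the minus strand was high at 1.28% of CpGs in EAF KO, 3.30% in EAF WT, 3.11% in SF KO and 1.82% in SF WT, and at 2.22% in SF KO without replicate 1.

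CpGs read on both strands were not a neutral sample of the CpGs read. The distances between successive CpGs form patterns, and a pattern found at many places marks sequence that the genome holds in many copies. A CpG was counted as of recurrent spacing when a run of 6 CpGs that holds it, spanning at most 200 bp, had the same 5 successive distances, read in either direction, at 10 or more autosomal places. Such CpGs were 15.3% of all autosomal CpGs listed and 33.7% of the distinct CpGs read on both strands. In single oocytes they were 29.5% to 78.4% of the CpGs read on both strands (median 58.2%) and 23.0% to 51.0% of the other CpGs with at least 10 reads (median 26.6%). In multi-copy sequence the reads of the strands may come from different copies, and how the authors treated reads that align to several places is not given in the sources used here.

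Nearly all CpGs in no class lay in recurrent spacing. Of the pairs within it 38222 of 74413 were in no class, against 1875 of 55571 outside it. Outside recurrent spacing the 2 strands were mostly alike, with 89.3% of all pairs symmetrically unmethylated. Pooled over oocytes this share was 93.4% in EAF KO and 82.1% in EAF WT.

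Over all CpGs outside recurrent spacing the EAF genotypes were further apart. The hemimethylated part of the methylated CpGs was 60% and 55.1% in the EAF KO oocytes, against 21.97%, 35.7%, 21.7% and 22.5% in the EAF WT oocytes, a difference of 32.1 points. Symmetric methylation there was 1.42% ± 0.670 in EAF KO (SD, n = 2) and 9.78% ± 1.03 in EAF WT (SD, n = 4), while hemimethylation was 1.87% ± 0.636 and 3.36% ± 1.02 in the same groups. At SF the hemimethylated part averaged 56.0% ± 4.57 in KO (SD, n = 5) and 41.8% ± 18.5 in WT (SD, n = 7). The SF ranges overlapped at 51.1% to 61.3% in KO and 24.4% to 80% in WT. The 80% was SF WT replicate 3, which had 5 methylated CpGs of this kind. Without the 2 oocytes that had fewer than 1000 CpGs read on both strands, both SF WT, the difference was 22.2 points and the ranges did not overlap. On the CpGs read in every group the SF difference was -12.54 points. No value was obtained for EAF KO on those CpGs, so the EAF difference outside recurrent spacing could not be checked there. CpGs outside recurrent spacing were mixed. With patterns at 2 to 9 places the hemimethylated part averaged 43.3% in EAF KO and 38.4% in EAF WT, with overlap. At SF it was 57.9% in KO and 61.5% in WT, with overlap. With patterns at 1 place it was 79.6% and 15.3% at EAF and 50.2% and 27.5% at SF, KO first. In CpGs of no pattern it was 55.4% and 26.9% at EAF and 67.6% and 23.5% at SF. These ranges did not overlap. EAF KO replicate 1 had 10, 7 and 3 methylated CpGs in the 3 parts.

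Within recurrent spacing the hemimethylated part was 55.7% ± 3.16 in EAF KO (SD, n = 2) and 50.8% ± 5.98 in EAF WT (SD, n = 4), and 67.8% ± 7.42 in SF KO (SD, n = 5) and 48.9% ± 13.4 in SF WT (SD, n = 7). The ranges overlapped at both stages.

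Hemimethylation was least frequent where CpGs were dense. Density counted the CpGs listed in at least 1 oocyte up to 100 bp away in both directions, the CpG itself included. In the class of 1 to 4 CpGs the hemimethylated share averaged 3.23% in EAF KO, 5.69% in EAF WT, 5.99% in SF KO and 5.04% in SF WT. SF KO replicate 1 had 16.5% there, and without it the SF KO mean was 3.37%, below SF WT. In the class of 5 to 9 it was 4.10% in EAF KO, 5.97% in EAF WT, 6.74% in SF KO and 6.21% in SF WT, and without SF KO replicate 1 and SF WT replicate 3 the means were 5.27% in SF KO and 5.74% in SF WT. The order of the SF means in these 2 classes thus rests on SF KO replicate 1. In the class of 10 to 19 it was 1.74% in EAF KO, 3.15% in EAF WT, 3.25% in SF KO and 2.57% in SF WT. In the densest class, of 20 or more, it was 0.410% in EAF KO, 0.504% in EAF WT, 0.726% in SF KO and 0.946% in SF WT. CpG islands, which stay unmethylated in most cells, are sequence of this kind. Symmetric methylation was nearly absent there, at 7 of 17088 pairs against 137 hemimethylated ones. The 4 groups differed in make-up, with 25.5% of the CpGs read on both strands in the densest class in SF WT and 8.92% to 12.9% in the other groups. The SF WT mean was raised by replicates 3 and 4, which had the fewest CpGs read on both strands, and was 14.2% without them.

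Within the sparser classes the ratio of hemimethylated to methylated CpGs kept the order of the genotypes. With 1 to 4 CpGs it was 48.8% in EAF KO and 26.9% in EAF WT, and 68.6% in SF KO and 25.7% in SF WT. With 5 to 9 CpGs it was 58.5% in EAF KO and 39.6% in EAF WT, and 62.8% in SF KO and 37.7% in SF WT. None of these 4 pairs of ranges overlapped. With 10 to 19 CpGs it was 53.0% in EAF KO and 40.6% in EAF WT without overlap, and 63.6% in SF KO and 49.8% in SF WT with overlap. The sparsest class rests on few CpGs, and with 10 reads required per strand its EAF difference was 1.03 points.

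**Figure D3:**
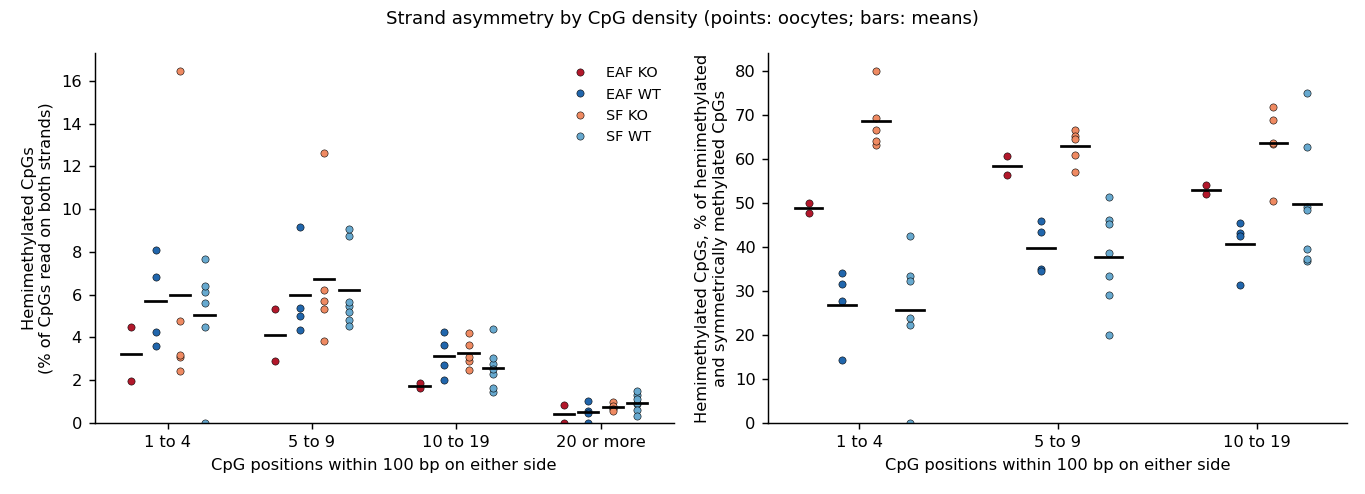
Hemimethylated share of CpGs read on both strands (left, percent) and hemimethylated CpGs as a percent of hemimethylated and symmetrically methylated CpGs (right), by the number of CpGs up to 100 bp away. Points are oocytes and bars are group means. In the left panel all group means are under 1% in the densest class; in the right panel KO means lie above WT means in the 3 classes drawn.

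Read depth moved with the share as well. Among CpGs whose shallower strand had 5 to 9 reads 5.07% were hemimethylated, with 10 to 19 reads 3.47%, with 20 to 49 reads 1.92% and with 50 or more reads 0.411% (25 of 6080 pairs). Symmetric methylation fell alongside, at 4.43%, 3.09%, 1.78% and 0.477% in the same depth classes. The pooled ratio of hemimethylated to methylated CpGs changed less, at 53.3%, 52.9%, 51.8% and 46.3%. Where the shallower strand had 5 to 9 reads the ratio of hemimethylated to methylated CpGs was 56.9% in EAF KO and 41.8% in EAF WT, and 65.6% in SF KO and 46.0% in SF WT, without overlap. With 10 to 19 reads it was 49.4% in EAF KO and 28.3% in EAF WT, and 62.6% in SF KO and 46.0% in SF WT, with overlap at both stages. With 20 to 49 reads it was 57.5% in SF KO and 35.5% in SF WT, again with overlapping ranges. In that depth class EAF KO replicate 1 had 1 methylated CpG, so no EAF mean is given. Pooled over oocytes 76.7% of 30 CpGs were hemimethylated in EAF KO and 36.7% of 98 in EAF WT, and 29 of the 30 came from EAF KO replicate 2.

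Hemimethylated CpGs came in stretches of 1 orientation. Each CpG was compared with the next CpG read on both strands on either side, where that was at most 50 bp away. Of such neighbours of a hemimethylated CpG, 39.2% were hemimethylated with the same strand high and 1.98% with the opposite strand high. Another 9.19% were symmetrically methylated, 26.2% symmetrically unmethylated and 23.4% in no class. Beside a symmetrically unmethylated CpG 1.47% were hemimethylated, and beside a symmetrically methylated one 10.3% were, with 57.5% symmetrically methylated. Neighbours share reads, so these shares describe stretches as read and not separate events. Counting each stretch of successive CpGs of 1 class once, the genotype differences in the ratio were 11.3 points at EAF without overlap and 16.1 points at SF with overlapping ranges.

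The same orientation beside a hemimethylated CpG was seen at 30.6% of neighbours in EAF KO, 41.3% in EAF WT, 42.4% in SF KO and 31.1% in SF WT. These shares are pooled over oocytes. SF KO replicate 1 reached 56.8%, and without it the SF KO share was 32.6%, close to SF WT. Runs of symmetric methylation differed between the EAF genotypes: beside a symmetrically methylated CpG the neighbour was symmetrically methylated at 42.4% and 45.2% in the EAF KO oocytes, against 57.8% to 76.6% in the EAF WT oocytes. Outside recurrent spacing that share was 44.7% over the CpGs of EAF KO and 82.5% over those of EAF WT.

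**Figure D4:**
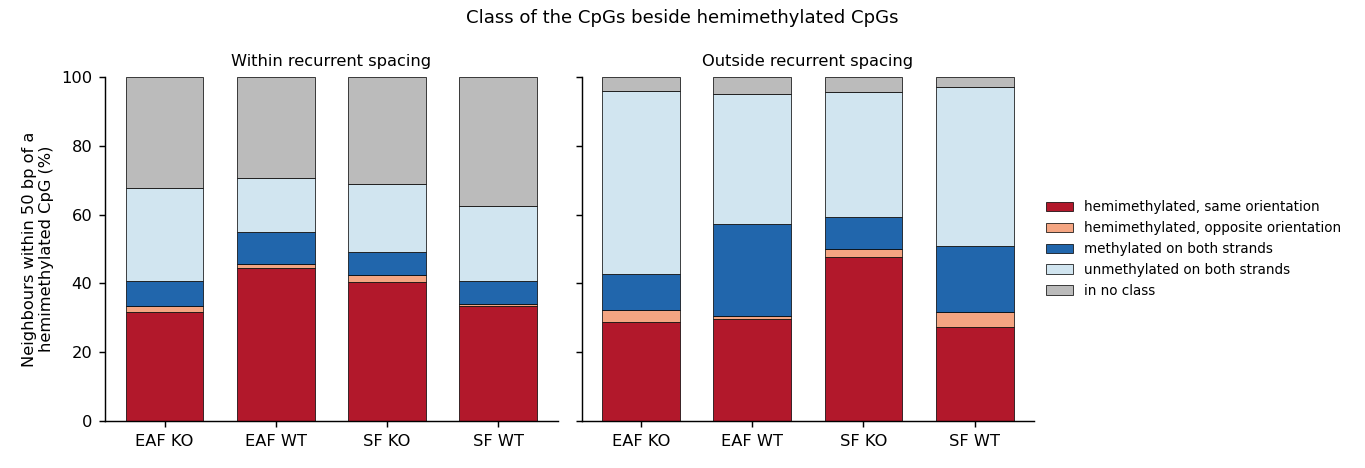
Class of the next CpG read on both strands on either side of a hemimethylated CpG, at most 50 bp away (percent of neighbours, pooled over the oocytes of a group), within and outside recurrent spacing. Neighbours hemimethylated in the same orientation far outnumber those in the opposite orientation in all 8 bars.

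Hemimethylation also recurred at single CpGs. Of 17744 CpGs read on both strands in 2 or more oocytes, 2144 were hemimethylated in at least 1 and 378 in at least 2, and in 323 of the 378 all hemimethylated oocytes had the same strand high. Counted over pairs of oocytes in which the CpG was hemimethylated in both, 881 pairs shared the orientation and 61 did not. Recurrent spacing held 859 of the 881 and 50 of the 61. Outside it 22 pairs shared the orientation and 11 did not, and the partner oocyte of a hemimethylated CpG was symmetrically unmethylated in 67.6% of cases.

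The most recurrent site was chr17:69673226-69673227 (mm9, 1-based), hemimethylated with the plus strand high in 9 of the 10 oocytes in which it was read. Its plus strand was 100% methylated in all 10, while its minus strand was at 4.17% in EAF KO replicate 2 and methylated in 1 of 8 reads in EAF WT replicate 3. In the SF KO oocytes the minus strand was at 20%, 33.3%, 12.1%, 9.52% and 6.06%, against 15.4%, 11.1% and 15.4% in the SF WT oocytes read. Its coverage was 5 to 61 plus and 8 to 45 minus reads. All oocytes of both genotypes thus had the same strand methylated. At chr17:69674286-69674287 and chr16:46643233-46643234 the plus strand was likewise 100% methylated in all 10 oocytes read at each. The minus strand there ranged from 0% to 27.3% and from 0% to 45.5%, and the CpGs were hemimethylated in 7 and 8 oocytes.

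The other 2 of the 5 most recurrent sites had other patterns. chr11:38067570-38067571 was hemimethylated with the plus strand high in 8 of 10 oocytes, on 5 to 19 plus reads and 48 to 476 minus reads. chr13:101818866-101818867 was hemimethylated with the minus strand high in 7 of 12 oocytes, and its minus strand was at 74.2% to 100% and its plus strand at 0% to 40%. The plus strand there was at 27.3% in the EAF KO oocyte and 0% to 16.7% in 3 EAF WT oocytes, and at up to 40% in 5 SF KO oocytes, the lowest with 3 of 24 reads methylated, and 0% to 10% in 3 SF WT oocytes. The ranges of the genotypes did not overlap at either stage. This site was chosen for its asymmetry, and its values describe 1 CpG. All 5 sites lay in recurrent spacing.

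For comparison, the CpGs symmetrically methylated in most oocytes were chr11:3093512-3093513 (7 of 13 oocytes), chr16:27424308-27424309 (6 of 15) and chr3:22629378-22629379 (5 of 9). The last of these shows how 1 CpG can differ between oocytes. Both strands were high in the 2 EAF KO oocytes, in EAF WT replicate 2 and in SF KO replicates 1 and 2, while EAF WT replicate 4 and SF KO replicate 3 had 0% and 5.88% on the plus strand and 100% on the minus strand.

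The 3 sites first named, on chromosomes 17 and 16, shared their CpG spacing, with 6 further CpGs at fixed distances on one side. This arrangement was found at 165 places on 18 autosomes, 92 of them in the forward and 73 in the mirrored direction, and 63 had another at a distance of 212 or 424 bp. It is referred to as a repeated unit, and its sequence was not examined here. The lead strand is used below for the plus strand of forward units and the minus strand of mirrored units.

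At the CpG at the end of this arrangement the methylated strand followed the direction of the unit. Of 668 pairs of an oocyte and a CpG, 133 were hemimethylated with the lead strand high and 4 with the lag strand high. In forward units 97 had the plus strand and 2 the minus strand high, and in mirrored units 36 had the minus strand and 2 the plus strand high. These CpGs held 2.74% of all hemimethylated pairs and 0.514% of all pairs. At the other 5 well-covered CpGs of the unit 3.84% to 6.27% of pairs were hemimethylated on the lead strand and 0.295% to 0.916% on the lag strand. The mean level was 33.4% on the lead strand and 15.3% on the lag strand at the end CpG, and 25.8% to 30.0% on the lead strand and 13.3% to 18.4% on the lag strand at the other 5. The unit was found from the most asymmetric sites, so the excess at its end CpG in forward units is in part a result of that choice.

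The lead strand at this CpG averaged 34.1% in EAF KO (30.8% to 37.3%, n = 2) and 9.58% in EAF WT (3.30% to 14.1%, n = 4). It averaged 38.4% in SF KO (29.3% to 49.98%, n = 5) and 34.2% in SF WT (6.79% to 48.2%, n = 5 with such CpGs). The EAF difference in the mean lead-strand level did not hold at matched places. At the 36 places read on both strands in both EAF groups the lead strand averaged 12.4% in EAF KO and 12.2% in EAF WT, and the lag strand 4.60% and 13.6%. Hemimethylation with the lead strand high was still seen in 5 of 44 pairs in EAF KO and 1 of 83 in EAF WT there. The lead strand thus lay above the lag strand in EAF KO only, on few pairs. At 71 places shared by the SF groups the lead strand was at 38.6% in SF KO and 40.8% in SF WT.

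CpGs that were symmetrically methylated in EAF WT oocytes were then followed in the other groups. Only 29 CpGs were read on both strands in at least 2 EAF WT oocytes and symmetrically methylated in each of those. They were symmetrically methylated in 2 of 17 pairs of an oocyte and a CpG in EAF KO, 10 of 25 in EAF WT oocytes scored against the others, 6 of 67 in SF KO and 9 of 40 in SF WT. Without SF KO replicate 1 the SF KO share of 8.96% was 3.92%, and the EAF KO share of 11.8% was 10.53% to 33.3% when the CpGs were chosen without 1 of the EAF WT oocytes. Hemimethylation was seen in 0 of 17 in EAF KO, 0 of 25 in EAF WT, 5 of 67 in SF KO and 1 of 40 in SF WT. By an approximate rule, not an exact interval, the counts of 0 allow shares of up to 17.6% in EAF KO and 12% in EAF WT. These limits take the pairs as independent, although several oocytes can be read at the same CpG. Most pairs that were neither symmetrically methylated nor hemimethylated were in no class.

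With 1 EAF WT oocyte sufficing there were 1044 such CpGs. Of the pairs read, 16.2% of 74 were symmetrically methylated in EAF KO, 41.6% of 149 in EAF WT, 10.2% of 412 in SF KO and 31.6% of 206 in SF WT. Symmetrically unmethylated pairs were 18.9% in EAF KO, 0.671% in EAF WT, 25.5% in SF KO and 7.77% in SF WT. Hemimethylated pairs were 6.76% in EAF KO, 10.1% in EAF WT, 10.7% in SF KO and 8.74% in SF WT. The EAF KO values came mostly from replicate 2, with 7 of 61 pairs symmetrically methylated and 14 of 61 unmethylated. EAF KO replicate 1 had 5 of 13 and 0 of 13, within the range of the EAF WT oocytes. In single SF KO oocytes 0% to 20% of pairs were symmetrically methylated, and 15.4% to 50% in the 6 SF WT oocytes that had such CpGs. Without SF KO replicate 1, the highest of its group, the SF KO share was 5.92%.

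A set of 3 CpGs was symmetrically methylated in at least 2 EAF WT oocytes and hemimethylated in a KO oocyte, each in 1. At chr17:56201580-56201581 both strands were at 100% in EAF WT replicates 3 and 4, and in SF KO replicate 3 the plus strand was at 100% on 10 reads and the minus strand at 0% on 23. At chr1:85336811-85336812 the plus strand was at 100% and 91.5% and the minus strand at 100% in EAF WT replicates 1 and 2, while SF KO replicate 5 had 82.1% on the plus and 0% on the minus strand, SF KO replicate 3 had 100% on both and SF KO replicate 2 had 0% on both. Of the KO oocytes read at chr14:29002209-29002210 the only hemimethylated one was SF KO replicate 3, with 16% on the plus and 91.7% on the minus strand.

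Mitochondrial DNA, which is taken as largely unmethylated, served as a check of bisulfite conversion. Methylated reads at its CpGs were 0.105% and 0.253% in the EAF KO oocytes, against 0.0524% to 0.374% in the EAF WT oocytes, and 0% to 3.58% in SF KO, against 0.347% to 5.86% in SF WT. The median over the 18 oocytes was 0.390%. SF KO replicate 3 had 3.58%, SF WT replicate 2 5.86% and SF WT replicate 4 5.70%, and the other 15 were below 3%. Their strands were unequal, with 4.66% on the plus and 0.494% on the minus strand in SF KO replicate 3, 5.43% and 9.22% in SF WT replicate 2, and 6.55% and 2.00% in SF WT replicate 4. All 3 mitochondrial CpGs read on both strands in SF WT replicate 4 and 1 of 6 in SF WT replicate 2 were hemimethylated. None was in the other oocytes that had such CpGs. SF WT replicates 1 and 3 and SF KO replicate 4 had no mitochondrial CpG read on both strands. Without the 3 oocytes above 3% the SF difference in the ratio of hemimethylated to methylated CpGs was 21.3 points, against 20.3 points with them. Reads on mitochondrial CpGs numbered 225 to 8824 per oocyte.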

How the data were processed

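Per the labels' protocols, single oocyte nuclei were digested with MspI, end-repaired, ligated, bisulfite converted and amplified. The submitters' processing notes name BSMAP 2.89 and mm9; which settings and filters were used is not given in the sources used here. Per the file headers, the deposited tables hold the total and methylated read count of each CpG, for both strands together and for each strand, and a methylation ratio, a fraction from 0 to 1, that was not needed here beyond checks.

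Strand levels, classes, density, CpG spacing and neighbours were computed from the deposited counts with Python 3.11.15, numpy 2.4.6, pandas 2.3.3 and scipy 1.17.1. The class and spacing steps were first tested on simulated data, while density and neighbours were not. The simulated strands were nearly all methylated or nearly all unmethylated and read well above the minimum of 5 reads. Errors at shallow CpGs or at levels between the limits were therefore not tested. Group values are means over oocytes, each CpG weighted equally within an oocyte, and intervals are exact (Clopper-Pearson). No test was made, because the labels name no animal and each library is 1 cell. Depth per oocyte is given above as reads summed over CpGs, so a read that spans several CpGs counts at each. The CpG set, the classes and the comparisons were chosen with earlier results of these data known. Recurrent spacing, the repeated unit, the stretches and the values without libraries that stood apart were added after the values were seen. Named sites were chosen by rank: the 5 CpGs hemimethylated in 1 orientation in most oocytes among those read in at least 6, up to 5 symmetrically methylated in at least 2 EAF WT oocytes and hemimethylated in most KO oocytes (3 existed), and 3 symmetrically methylated in most oocytes, at most 1 per kb and none on chromosome 18. Alternatives changed the read minimum, the class limits, the depth, the CpGs and the oocytes included.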

Additional observations from a re-analysis of the deposited data

Results flagged for a closer look

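SF KO replicate 1 lay far from the other 4 SF KO oocytes, with 5.02% of its CpGs symmetrically methylated, 43.9% symmetrically unmethylated and 44.0% in no class, 72.4% in no class within recurrent spacing, 7.38% hemimethylated outside recurrent spacing, and 56.8% of neighbours of hemimethylated CpGs in the same orientation.

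SF WT replicate 3, the shallowest library, lay far from the other 6 SF WT oocytes. It had 1.22% of its CpGs hemimethylated, 0.993% outside recurrent spacing, a hemimethylated part of 80% among methylated CpGs outside recurrent spacing, and 0% of neighbours of hemimethylated CpGs in the same orientation, on 13 neighbours. EAF WT replicate 2 stood apart with a hemimethylated part of 35.7% outside recurrent spacing, and SF KO replicate 3 with 3.58% methylated reads on mitochondrial DNA. Across 42 groups of values checked for a sample far from the others, 12 were found, and chance gives about 1 in 20 for separate checks. These checks were not separate, since several shares are parts of the same totals. Most of the 12 came from SF KO replicate 1 and SF WT replicate 3, so an excess over chance cannot be read from the count.

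CpGs of the Y chromosome held up to 474 reads in an oocyte of these female animals, and none was read on both strands with 5 reads on each.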

How the results depend on the processing

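Differences below are in percentage points, KO minus WT or EAF minus SF, over the oocytes. Of the 442 values under alternatives, 400 moved by less than 1 SD between oocytes, and the cause of the others was not tested. The alternatives left out each oocyte in turn, also those in neither group of a contrast, where the value could not move. The count of 400 therefore overstates how stable the results are. For the orientation shared by oocyte pairs the limit came from a binomial interval, not from an SD between oocytes. The hemimethylated share, at 10 reads per strand, differed by -0.402 (EAF genotypes) and -0.0403 (WT stages). Calculated for a draw of 5 reads per strand it differed by -2.60 (EAF genotypes), 2.56 (SF genotypes) and 2.07 (WT stages). On CpGs shared by all groups it differed by -0.763, -1.41, -0.796 and -0.145 (the last between KO stages). The hemimethylated part of methylated CpGs, on shared CpGs, differed by 9.78 (EAF genotypes), 8.94 (SF genotypes), -18.6 (WT stages) and -17.7 (KO stages). At 10 reads the WT stages differed by -11.9. With density classes weighted equally the EAF genotypes differed by 9.05 and the KO stages by -16.6, and with stretches counted once the EAF genotypes by 11.3. Outside recurrent spacing the EAF genotypes differed by 32.1, the WT stages by -16.3 and the KO stages by 1.48, which turned the -8.65 found over all CpGs. There the EAF genotypes differed by 25.2 at 10 reads, 24.4 at 3 reads, 23.6 with equal density weights and 42.6 with patterns at 3 or more places counted as recurrent, and the KO stages by -13.9, -8.83, -12.3 and 11.8 under these settings. The SF genotypes differed by -12.54 there on shared CpGs, for which EAF KO had no value.

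With 1 to 4 CpGs the EAF difference was 30.0 with a radius of 250 bp and 1.03 at 10 reads, and with 10 to 19 CpGs it was 19.8 at 10 reads. The hemimethylated share with 20 or more CpGs differed by -1.27 at EAF and 0.765 at SF with the wider radius. For CpGs symmetric in EAF WT, the symmetric share in EAF KO was 16.2% with 1 oocyte sufficing, 44.4% at 10 reads and 10.53% to 33.3% when an oocyte was left out, and in EAF WT 75% at 10 reads. Orientation was shared in 96.4% of hemimethylated oocyte pairs at 10 reads, against 93.5%. Leaving out CpGs at MspI cuts, where end repair adds bases, was not run, since no sequence of mm9 was used here. No paired analysis was possible because the results come from no test and the replicate numbers name single oocytes. Limits are the 2 EAF KO oocytes, unequal depth of the SF genotypes, and a shallower strand with 5 to 9 reads in 63818 of the 129984 pairs.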

Other observations

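The X chromosome was left out of the comparisons. Of its 2991 pairs of an oocyte and a CpG read on both strands, 335 were hemimethylated, or 11.2% (exact 95% interval 10.1% to 12.4%), and 15.9% were symmetrically methylated, against 3.84% and 3.41% on the autosomes. The hemimethylated part of its methylated CpGs was 41.3%, against 53.0% on the autosomes. Per oocyte the hemimethylated share ran from 0% to 14.6% with a median of 10.49% on the X chromosome. SF KO weighs most in the pooled X values, with a mean of 374 such CpGs per oocyte, against 63 in SF WT, 75 in EAF WT and 189 in EAF KO. The X chromosome and the autosomes were not matched for group, CpG density, depth or recurrent spacing.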
